A study of Mus musculus with 8 samples.

Results

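The Frizzled receptors are the 10 genes Fzd1 to Fzd10, found here as every probe set that the array annotation pairs with a single symbol of the family. All 10 were measured, by 26 of the 45037 probe sets that are not controls, from 1 for Fzd9 to 6 for Fzd3. They were compared in choroid plexus of the fourth ventricle from mouse embryos at embryonic day 13. One group held 4 arrays labelled Otx2 k.o., from an Otx2-deficient strain, and the other 4 arrays labelled wildtype, from the same litters. Both groups had a mixed strain background, an undetermined sex and no treatment, and each array was a biological replicate per the labels. The labels and files used here do not say what drives the deletion, which part of the gene is deleted or how many embryos went into a sample. The p-values therefore set group differences against the spread between these samples, which may not be the spread between single embryos.

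Frizzled proteins are receptors with membrane-spanning helices that bind secreted Wnt ligands through a cysteine-rich domain outside the cell. With the co-receptors Lrp5 or Lrp6 they recruit Dishevelled and stabilise beta-catenin, and with other partners they act in planar cell polarity. By sequence the mammalian family is usually divided into the subfamilies Fzd1, Fzd2 and Fzd7, then Fzd5 and Fzd8, then Fzd3 and Fzd6, then Fzd4, Fzd9 and Fzd10. Wnt signals pattern the dorsal midline of the neural tube, from which the choroid plexus epithelium arises.

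Levels are log2 values made by the authors with RMA, and 1 log2 unit is a doubling of the signal. Array medians lay between 5.85 and 5.90 units, and correlations across genes were 0.984 to 0.989 between groups, against 0.990 to 0.997 within them. The targeted gene Otx2, a homeodomain transcription factor, was not lower. The probe set for it read 12.38, 12.46, 12.44 and 12.48 in the arrays labelled knockout, against 12.00, 12.05, 11.97 and 11.85 in the wildtype arrays (log2 fold change 0.47, SE 0.06, limma adjusted p = 0.000648). Whether its probes lie inside the deleted part is not stated in the labels or files, so each direction below depends on the labels, and the arrays are called knockout-labelled. Choroid epithelium markers were mostly lower in knockout-labelled arrays, with 9 of 10 passing on that side (limma, adjusted p under 0.05). The exception was Ttr, the thyroid hormone carrier, at 14.17 in knockout-labelled and 14.21 in wildtype arrays.

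Of the 10 Frizzled genes, Fzd2 and Fzd10 rose, Fzd4 and Fzd5 fell, and 6 did not pass the test. Each gene was read by its brightest probe set, and p-values came from limma with Benjamini-Hochberg adjustment over 18193 genes at a threshold of 0.05. Over all genes 19.6% passed, with 7.84% higher in knockout-labelled arrays and 11.7% lower. In the same 4 Frizzled genes the groups did not overlap, as in 24.3% of all genes. The median log2 fold change of the 10 genes was -0.06, beside 0.00 over all genes.

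**Figure D1:**
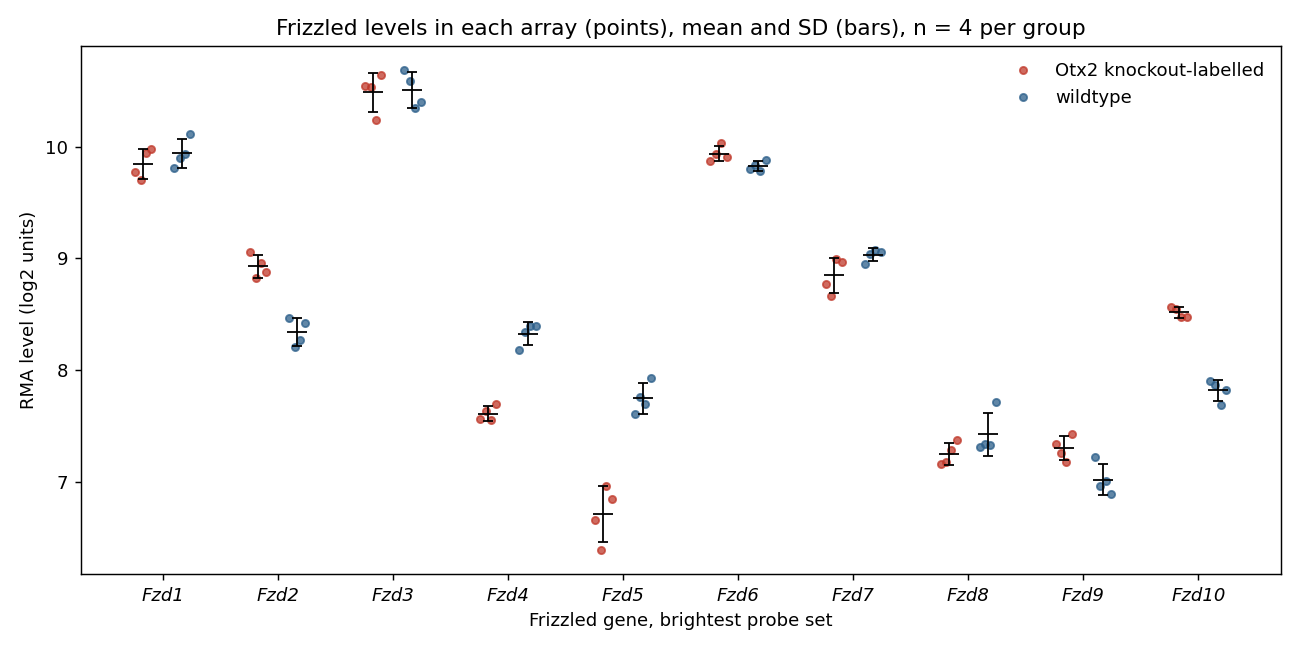
RMA level in log2 units of each Frizzled gene (brightest probe set) in each array. Points are arrays, with knockout-labelled arrays in red at the left of each gene and wildtype arrays in blue at the right, and bars give the mean and SD (n = 4 each). The groups do not overlap for Fzd2, Fzd4, Fzd5 and Fzd10.

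Fzd10, known from the dorsal neural tube of vertebrate embryos, had the smallest p of the family. It read 8.57, 8.55, 8.48 and 8.48 log2 units in the knockout-labelled arrays, against 7.91, 7.87, 7.69 and 7.82 in the wildtype arrays. All knockout-labelled arrays were above all wildtype arrays, with a narrow spread in each group (SD 0.05 in knockout-labelled and 0.09 in wildtype arrays). Its level was 1.62-fold higher, a log2 fold change of 0.70 with a 95% interval of 0.55 to 0.84 (SE 0.07, limma adjusted p = 9.13e-05). The second probe set of Fzd10 was dimmer than the lower quartile of the array, at 3.55 ± 0.26 in knockout-labelled and 3.54 ± 0.10 in wildtype arrays (SD, n = 4 each), and did not pass (0.01). At such a level signal and background cannot be told apart here, as detection calls are not used. Fzd10os, the gene annotated on the opposite strand of Fzd10, gave log2 fold changes of -0.06 and -0.26 in its 2 probe sets and passed in neither (limma over all probe sets, adjusted p = 0.743 and 0.0820).

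Fzd2, a receptor that can take up Wnt5a signals, rose in every probe set it has. The brightest read 9.06, 8.82, 8.96 and 8.88 log2 units in the knockout-labelled arrays, against 8.47, 8.21, 8.27 and 8.42 in the wildtype arrays. This was 1.50-fold higher, a log2 fold change of 0.59 with a 95% interval of 0.41 to 0.77 (SE 0.08, limma adjusted p = 0.000816). The other 2 probe sets gave log2 fold changes of 0.65 and 0.62 in the fit over all probe sets (limma adjusted p = 0.000338 and 0.00382). All 3 were brighter than the upper quartile of the array, and in none did the groups overlap. Within the knockout-labelled group, replicate 2 was the lowest in each of the 3.

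Fzd4, the receptor for Norrin as well as for Wnts and known for its part in retinal vessels, fell. It read 7.56, 7.63, 7.55 and 7.70 log2 units in the knockout-labelled arrays, against 8.18, 8.34, 8.39 and 8.40 in the wildtype arrays. The groups were well apart, and the level was 1.65-fold lower, a log2 fold change of -0.72 with a 95% interval of -0.88 to -0.56 (SE 0.07, limma adjusted p = 0.000109). A second probe set read 5.72, 6.25, 6.08 and 5.90 in the knockout-labelled arrays, against 6.85, 6.82, 6.68 and 6.93 in the wildtype arrays. It fell as well, by 0.84 log2 units (limma over all probe sets, adjusted p = 0.000956). The remaining one, designed from the same sequence record as the second per the array annotation, was among the dimmest on the array at 2.65 ± 0.17 in knockout-labelled and 2.82 ± 0.03 in wildtype arrays (SD, n = 4 each). It gave -0.17 and did not pass (limma adjusted p = 0.268).

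Fzd5, a receptor with known parts in eye and placenta development, had the largest change of the 10 genes when each was read by its brightest probe set. It read 6.66, 6.39, 6.96 and 6.84 log2 units in the knockout-labelled arrays, against 7.61, 7.76, 7.70 and 7.93 in the wildtype arrays. The highest knockout-labelled array stayed below the lowest wildtype array, and the spread was wider in the knockout-labelled group (SD 0.25, against 0.14 in wildtype). The level was 2.05-fold lower, a log2 fold change of -1.03 with a 95% interval of -1.31 to -0.76 (SE 0.12, limma adjusted p = 0.000364). Its other probe set lay under the median of all probe sets, at 4.49 ± 0.09 in knockout-labelled and 4.62 ± 0.02 in wildtype arrays (SD, n = 4 each), with the groups apart. That difference of -0.14 did not pass (limma over all probe sets, adjusted p = 0.240). With the mean of both probe sets in place of the brightest, the change of Fzd5 was -0.59 (limma adjusted p = 0.000861) and that of Fzd10, taken the same way, 0.35 (limma adjusted p = 0.0102).

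These are bulk samples, so fewer cells of a type and less RNA per cell cannot be told apart. In the same arrays, markers of several cell types moved. Of 10 choroid epithelium markers 9 fell and Ttr did not pass, and their mean log2 level per array was 10.04 to 10.29 in knockout-labelled and 11.28 to 11.43 in wildtype arrays. All 10 stroma markers rose, with mean levels of 11.17 to 11.47 in knockout-labelled and 10.66 to 10.71 in wildtype arrays, and of 11 macrophage markers 8 rose and 3 did not pass (9.06 to 9.50 in knockout-labelled, against 8.42 to 8.69 in wildtype arrays). Of 10 endothelium markers 1 rose and 3 fell, and their mean levels overlapped between groups (9.11 to 9.32 in knockout-labelled, against 9.24 to 9.47 in wildtype arrays). The 1 that rose, Cdh5, lost its call in 7 of the 8 fits without 1 array. Of 5 pericyte markers 1 rose and 2 fell, of 10 neural progenitor markers 2 rose and 1 fell, and of 7 erythroid markers 1 fell. The number of pericyte markers that fell was 1 without wildtype replicate 3 or 4, that of progenitor markers that rose was 1 without knockout-labelled replicate 1 or wildtype replicate 3 or 4, and that of erythroid markers that fell was 2 without wildtype replicate 1. Of the 10 neuron markers 0 passed (limma; Gap43 had an unadjusted p under 0.05), and without wildtype replicate 1 Gap43 passed (limma adjusted p = 0.00767). Mean levels of the neuron markers varied widely within each group, from 7.23 to 8.67 in knockout-labelled and from 6.89 to 8.47 in wildtype arrays. The lack of calls therefore does not show equal neuron content. Averaged over the 8 arrays, all markers of these lists lay above the lower quartile of the array, 4.34, but the choroid epithelium marker Kl, the klotho gene, averaged 4.19 in knockout-labelled and 5.36 in wildtype arrays. The part of these cell types in the Frizzled changes was not tested.

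The promoters of Fzd10, Fzd4 and Fzd5 are shown because these genes passed the test, and that of Fzd1, which did not pass, because it alone among the 6 Frizzled promoters given held an OTX or TCF/LEF core. Each runs from 250 bases before to 50 after the start of the gene, 5′ to 3′ on the gene's strand, from RefSeq on GRCm38.p6. Capitals mark matches on either strand to the OTX core TAATCC, the TCF/LEF core CTTTGA, the GC box GGGCGG or the CCAAT box. Fzd10 is at chr5:128600856-128601155 on the plus strand, Fzd4 at chr7:89404116-89404415 on the plus strand, Fzd5 at chr1:64737701-64738000 on the minus strand and Fzd1 at chr5:4758167-4758466 on the minus strand.
Fzd10: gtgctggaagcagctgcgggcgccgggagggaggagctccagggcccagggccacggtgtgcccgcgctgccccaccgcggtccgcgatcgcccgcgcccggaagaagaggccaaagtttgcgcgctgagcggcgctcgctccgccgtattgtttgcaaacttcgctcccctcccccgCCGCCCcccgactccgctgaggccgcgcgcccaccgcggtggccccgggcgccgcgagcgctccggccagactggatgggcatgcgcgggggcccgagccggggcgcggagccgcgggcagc
Fzd4: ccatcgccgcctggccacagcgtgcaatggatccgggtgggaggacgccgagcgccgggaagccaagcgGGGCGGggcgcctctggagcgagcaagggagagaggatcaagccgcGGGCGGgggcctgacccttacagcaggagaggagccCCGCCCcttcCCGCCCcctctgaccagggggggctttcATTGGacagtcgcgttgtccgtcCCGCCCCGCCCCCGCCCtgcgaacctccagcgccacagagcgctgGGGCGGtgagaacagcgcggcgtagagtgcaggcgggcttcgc
Fzd5: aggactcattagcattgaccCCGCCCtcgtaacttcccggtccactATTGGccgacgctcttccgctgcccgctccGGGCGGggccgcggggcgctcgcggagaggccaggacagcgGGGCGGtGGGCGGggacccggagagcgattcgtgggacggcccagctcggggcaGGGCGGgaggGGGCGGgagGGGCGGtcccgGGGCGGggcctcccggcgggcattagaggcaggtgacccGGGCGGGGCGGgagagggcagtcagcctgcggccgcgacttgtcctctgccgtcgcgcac
Fzd1: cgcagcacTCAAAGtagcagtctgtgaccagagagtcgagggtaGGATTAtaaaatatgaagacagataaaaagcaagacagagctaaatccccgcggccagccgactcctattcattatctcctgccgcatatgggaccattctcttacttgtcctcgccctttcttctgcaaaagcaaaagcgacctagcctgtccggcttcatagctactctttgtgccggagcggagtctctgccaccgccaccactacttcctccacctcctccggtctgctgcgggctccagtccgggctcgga
Promoters of 6 Frizzled genes were in the table, the other 2 being those of Fzd7 and Fzd9. The GC box occurred 8 times in the Fzd4 promoter, 10 times in that of Fzd5 and once in that of Fzd10. A CCAAT box was found once each in those of Fzd4 and Fzd5, and not in the Fzd10 window. Of all 32851 promoters in the table, 35.7% held a GC box and 37.4% a CCAAT box, against 5 and 3 of the 6 Frizzled promoters. The OTX core was in 7.06% of all promoters and the TCF/LEF core in 16%, and each was in 1 of the 6, that of Fzd1. Matches of different motifs did not overlap in these windows, while GC boxes overlapped each other. The GC content of the 6 promoters ran from 54.0% in Fzd1 to 78.0% in Fzd9, above the median of 52.7% over all promoters. A match is a run of letters and not a measured binding site.

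For the 6 Frizzled genes that did not pass, the 95% intervals of the log2 fold change lay within -0.40 to 0.48. Fzd9, a receptor expressed in the developing hippocampus, read 7.34, 7.26, 7.17 and 7.43 log2 units in the knockout-labelled arrays, against 7.22, 6.96, 7.01 and 6.89 in the wildtype arrays. The groups overlapped by wildtype replicate 1, and the log2 fold change of 0.28 (SE 0.09) missed the threshold by little (limma adjusted p = 0.0502). It passed under 6 of 16 alternatives, among them the fits without wildtype replicate 1 (limma adjusted p = 0.0181) and without knockout-labelled replicate 3 (0.0441). Over the 16 alternatives its adjusted p ran from 0.0181 to 0.134.

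Fzd7, known from embryonic and intestinal stem cells, gave -0.18 with a 95% interval of -0.37 to 0.01 (limma adjusted p = 0.174). It read 8.78, 8.67, 8.99 and 8.97 in the knockout-labelled arrays, against 8.95, 9.04, 9.08 and 9.06 in the wildtype arrays, and the groups overlapped. Fzd1, its close relative, gave -0.09 with an interval of -0.29 to 0.11 (adjusted p = 0.546). Fzd8, whose ligand-binding domain is well studied, gave -0.18 with an interval of -0.40 to 0.05 (limma adjusted p = 0.283). Its wildtype replicate 4 read 7.72, away from the other wildtype arrays at 7.32 to 7.34. Without that array the log2 fold change of Fzd8 was -0.08.

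Fzd3 and Fzd6 guide axons and orient cells in the plane of a tissue. Fzd6 read 9.94 ± 0.07 log2 units in knockout-labelled and 9.83 ± 0.05 in wildtype arrays (SD, n = 4 each), a difference of 0.11 with an interval of -0.02 to 0.25 (limma adjusted p = 0.239). Fzd3 read 10.49 ± 0.17 in knockout-labelled and 10.51 ± 0.16 in wildtype arrays, a difference of -0.02 with an interval of -0.26 to 0.22 (limma adjusted p = 0.941). Of the 6 probe sets of Fzd3 none passed in the fit over all probe sets, with log2 fold changes of -0.25 to 0.08. In 1 of them the groups did not overlap, at 7.14 ± 0.09 in knockout-labelled and 7.36 ± 0.08 in wildtype arrays (limma adjusted p = 0.0881). Averaging the probe sets of each gene gave -0.02 for Fzd6 and -0.10 for Fzd3, so the sign for Fzd6 turned.

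Across the 26 probe sets, 4 were higher and 3 lower at the threshold, beside 5.27% higher and 7.46% lower over all 45037. The groups did not overlap in 9 of the 26, beside 18.8% of all probe sets. All 7 that passed were among the 16 above the median of all probe sets, and 0 of the 10 under it passed (limma; the unadjusted p was under 0.05 for 1 of them). The same split was not counted over all probe sets, so it is not read as a trait of this family. Only Fzd2 and Fzd4 had more than 1 probe set that passed, and within each gene these passed in the same direction.

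**Figure D2:**
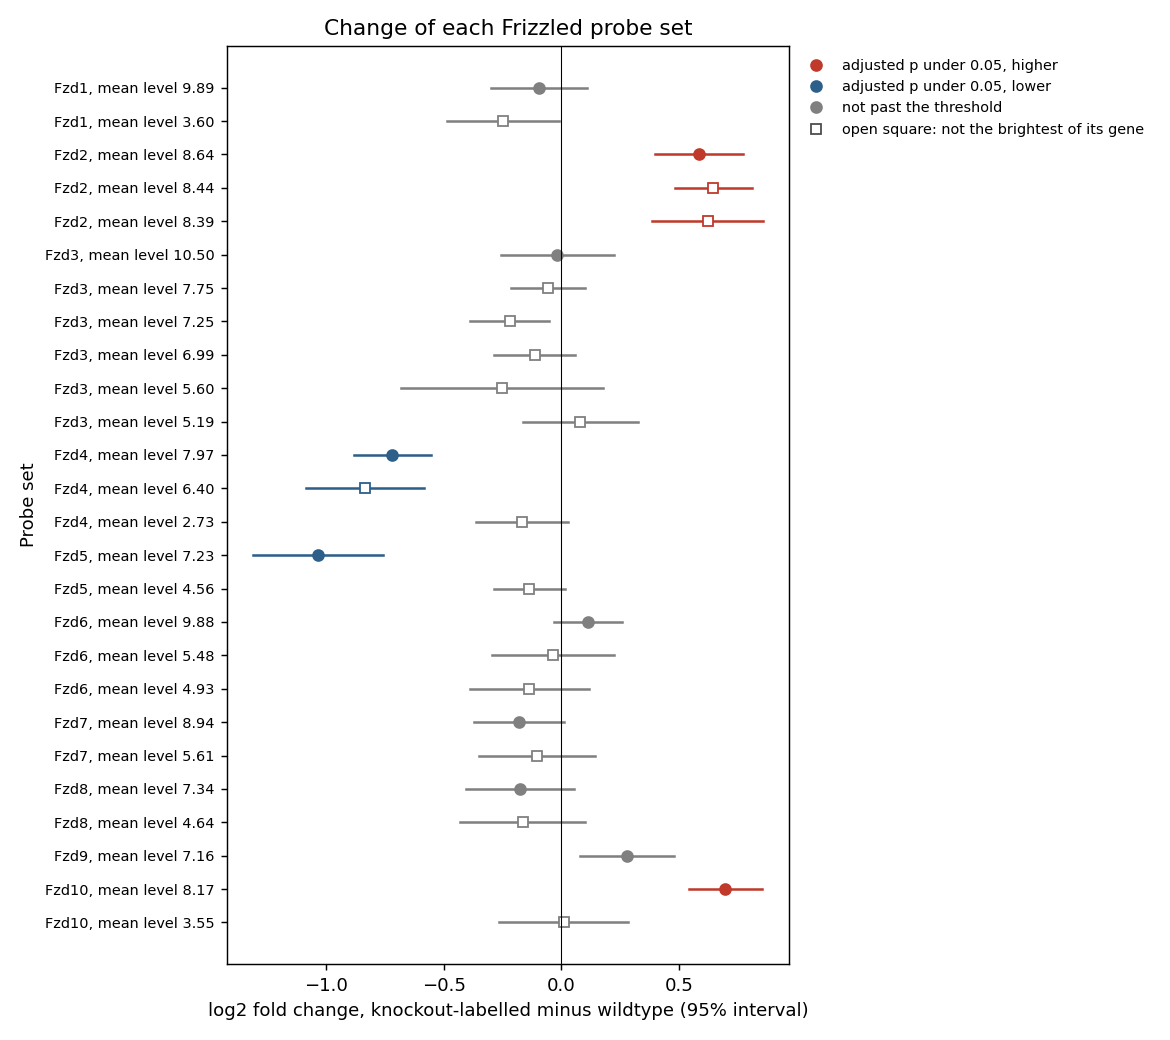
Log2 fold change of each of the 26 Frizzled probe sets, knockout-labelled minus wildtype, with the 95% interval of the limma fit over all probe sets. Red marks those higher and blue those lower at the threshold, filled circles the brightest probe set of a gene, and the axis labels give the mean level over 8 arrays. All 3 probe sets of Fzd2 lie above 0, and 2 of the 3 of Fzd4 passed on the lower side.

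Some relatives within a subfamily changed by different amounts. For each of 8 pairs the difference between both genes was taken within each array and compared between groups with an exact two-sided permutation test over 70 assignments, for which 0.0286 is the smallest p. The size of such a difference within 1 array has no meaning across probe sets, and only its change between groups is read. In 6 of the 8 pairs the groups did not overlap and p was 0.0286 (0.0381 adjusted over the 8 pairs). Among all single genes the groups did not overlap in 24.3%, and the share over pairs of any genes was not counted. The count of pairs is therefore not read as a trait of this family. With exchange only within same-numbered arrays the smallest p is 0.125 (0.167 adjusted over the pairs), so no pair can pass there.

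Fzd4 and Fzd10, of a single subfamily, moved in opposite directions. Fzd4 minus Fzd10 was -1.01 to -0.78 log2 units in the knockout-labelled arrays, against 0.27 to 0.70 in the wildtype arrays. The change of -1.42 was the largest of the 8 pairs in this test, and with the mean of probe sets it was -0.93. Fzd4 also changed against Fzd9, by -1.0, and Fzd9 against Fzd10, by -0.42. The last of these had an adjusted p of 0.0762 in the exact test without wildtype replicate 1 or without wildtype replicate 3, and a value of -0.07 with the mean of probe sets. In both tests without 1 array the change was -0.38, the groups were of unequal size and they still did not overlap.

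In the subfamily of Fzd1, Fzd2 and Fzd7 only Fzd2 passed the test of single genes. Fzd2 minus Fzd7 was -0.09 to 0.28 in the knockout-labelled arrays, against -0.83 to -0.48 in the wildtype arrays, a change of 0.77. Fzd1 minus Fzd2 changed by -0.68, while Fzd1 minus Fzd7 was 0.95 to 1.03 in knockout-labelled and 0.85 to 1.06 in wildtype arrays. Those ranges overlapped (change 0.09, exact permutation p = 0.143, adjusted p = 0.163). Without wildtype replicate 4 the change was 0.14 and passed (exact permutation, adjusted p = 0.0327), while the mean of probe sets turned it to -0.03.

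Fzd5 minus Fzd8 was -0.79 to -0.33 in the knockout-labelled arrays, against 0.21 to 0.42 in the wildtype arrays, a change of -0.86. Averaging the probe sets of each gene gave -0.41 for this pair, which still passed (exact permutation, adjusted p = 0.0457). Fzd3 minus Fzd6 was 0.21 to 0.74 in knockout-labelled and 0.52 to 0.89 in wildtype arrays, and the change of -0.13 did not pass (exact permutation p = 0.457, also 0.457 adjusted). Each subfamily that held a called gene also held a pair that changed unequally at the adjusted threshold. Every pair that passed included a gene already called on the same arrays, so the pairs are no separate support for those calls. Each was also at the smallest p of the test, so its adjusted p depended on how many pairs reached that floor.

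**Figure D3:**
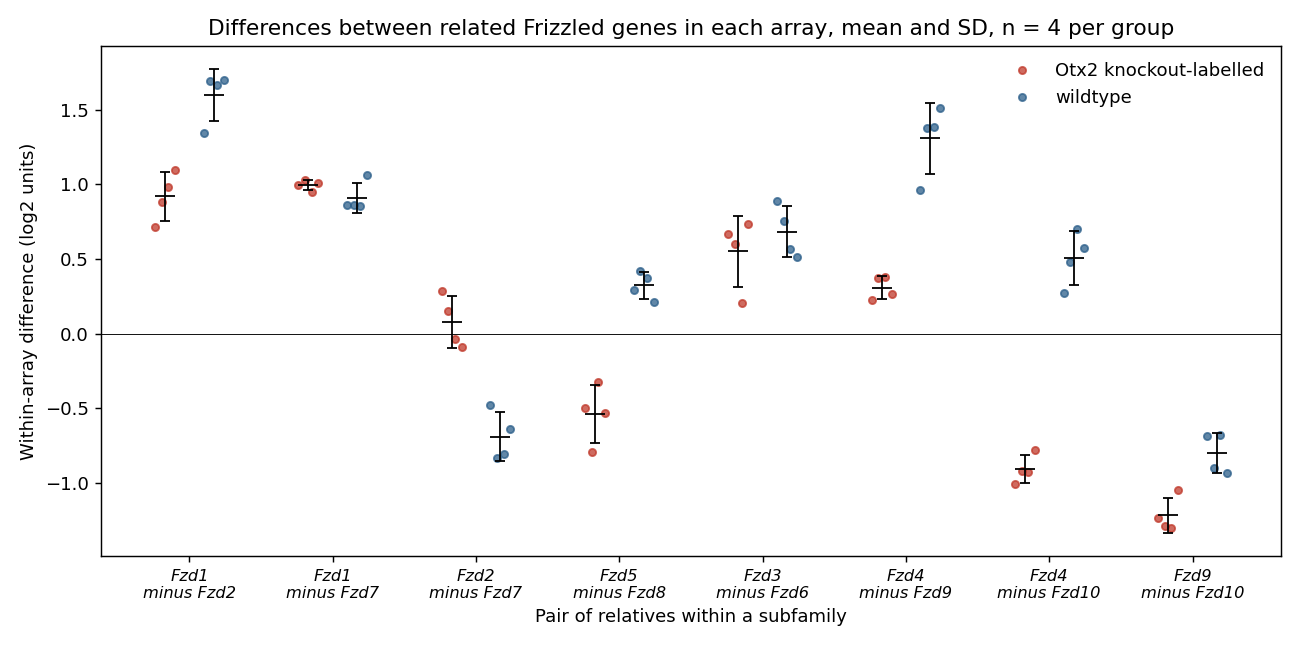
Difference between related Frizzled genes within each array, in log2 units, for 8 pairs. Points are arrays, with knockout-labelled arrays in red at the left and wildtype arrays in blue at the right, and bars give the mean and SD (n = 4 each). The groups overlap for Fzd1 minus Fzd7 and Fzd3 minus Fzd6 and are apart for the other 6 pairs.

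For the 3 called members with the smallest p, the genes with the nearest profile were sought, by the root mean square distance over the 8 arrays between log2 levels counted from the wildtype mean. Nearest to Fzd10 were Tstd3 and Zfp423, a zinc finger transcription factor, both at 0.07 log2 units, and Nes, the intermediate filament nestin of neural progenitors, at 0.08. The median distance from Fzd10 to all genes was 0.52. Nearest to Fzd4 were Ift80, a part of the intraflagellar transport machinery, Mbnl3, an RNA-binding splicing regulator, and Clec1b, a platelet lectin receptor, each at 0.06. Nearest to Fzd5 were Spag17, a gene of the motile cilium, Mansc1 and Dapl1, at 0.10 to 0.11 log2 units. These distances are descriptions, since many genes differ between the groups by like amounts.

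The genes around the receptors rose more often than they fell. Of 94 measured genes in 7 lists of the Wnt pathway, each counted once, 29 rose (30.9%, beside 7.84% of all genes) and 9 fell (9.57%, beside 11.7%). The lists were chosen with earlier results of these data known, and the shares over all genes were not matched for level. These shares are therefore descriptions and no test of the lists. Their median log2 fold change was 0.08, beside 0.00 over all genes and -0.06 for the Frizzled genes. Leaving out knockout-labelled replicate 1 or 4 gave 19 genes that rose, and leaving out wildtype replicate 4 gave 18. The number that fell was 7 to 10 over the fits without 1 array.

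Among 19 Wnt ligands, the proteins that Frizzled receptors bind, 5 rose and 2 fell, with a median of 0.14. Without wildtype replicate 4, 3 rose. Wnt6 rose by 0.62, while Wnt5a and Wnt8b fell by 0.41 and 0.75 (limma adjusted p = 0.00191, 0.000685 and 0.00103). Wnt8b was dim in both groups, at 4.40 ± 0.05 log2 units in knockout-labelled and 5.15 ± 0.23 in wildtype arrays (SD, n = 4 each). Its other 2 probe sets gave -0.13 and -0.07 and did not pass, and of the 3 other probe sets of Wnt5a 2 fell and 1 gave 0.02.

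Of 15 co-receptors and partners 5 rose and 1 fell, with a median of 0.09. In 6 of the 8 fits without 1 array 3 rose, the exceptions being those without knockout-labelled replicate 2 or wildtype replicate 1, and without wildtype replicate 2 the number that fell was 0. Gpc4, a heparan sulfate proteoglycan that binds Wnts, rose by 0.80. Reck, which works with Adgra2 and Frizzled in Wnt7 signalling, rose by 0.58, and Ror2, a tyrosine kinase receptor for Wnt5a, by 0.51 (limma adjusted p = 0.000273, 0.00174 and 0.00233). Of 11 genes that control Frizzled at the cell surface 2 rose and 1 fell, and 2 fell without knockout-labelled replicate 2 or wildtype replicate 1. Rspo1, a secreted protein that protects Frizzled from removal, rose by 1.57 and its receptor Lgr4 by 0.33, while Shisa2, a relative of the Xenopus protein that holds Frizzled back in the endoplasmic reticulum, fell by 1.38. Lgr4 lost its call without wildtype replicate 1 or 2, and averaging its probe sets gave a limma adjusted p of 0.224.

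Of 13 secreted antagonists 6 rose and 1 fell, with a median of 0.34 (0.20 without knockout-labelled replicate 1). Dkk2, which binds the Lrp co-receptors, rose by 2.78, and Frzb, which has a cysteine-rich domain like that of Frizzled, by 0.48, while the Lrp-binding Sostdc1 fell by 1.25 (limma adjusted p = 9.83e-08, 0.00200 and 0.000471). The other probe set of Frzb gave 0.22 and did not pass. Sostdc1 is also counted among the choroid epithelium markers that fell. Of 16 intracellular transducers 2 rose and 2 fell, with a median of 0.03. The number that rose was 0 or 1 in each of the 8 fits without 1 array and the number that fell was 1 in 7 of them, and with the replicate number as a block 0 rose and 1 fell. Ctnnbip1, an inhibitor of beta-catenin, fell by 0.28 (limma adjusted p = 0.00787). Bcl9, a beta-catenin cofactor, gave 0.33 and the transcription factor Lef1 gave -0.26 (limma adjusted p = 0.0410 and 0.0433). The other gene of this list that rose was Dvl1, a Dishevelled protein, at 0.22 (limma adjusted p = 0.0464). The calls of Bcl9 and Lef1 were lost in 7 of the 8 fits without 1 array and with the replicate number as a block (limma adjusted p = 0.0533 and 0.0665).

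Of 13 canonical targets 5 rose and 1, Lef1, fell, with a median of 0.34. Leaving out knockout-labelled replicate 4 or wildtype replicate 1 left 1 riser, and there were 2 without replicate 3 of either group, 3 without knockout-labelled replicate 1 or wildtype replicate 2 or 4, and 7 without knockout-labelled replicate 2. The number that fell was 0 in 7 of these 8 fits. Axin2, a feedback inhibitor, rose by 0.56, Nkd2, another, by 0.35 and Tnfrsf19, a receptor of the tumour necrosis factor family, by 0.34 (limma adjusted p = 0.00120, 0.0214 and 0.0259). Tnfrsf19 lost its call in 6 of the 8 fits without 1 array and with the replicate number as a block (limma adjusted p = 0.0642), and Nkd2 in 3 of the 8 fits without 1 array. The other 2 probe sets of Tnfrsf19 gave -0.08 and 0.16. That of Axin2 gave 0.28 and did not pass, and of the 3 others of Nkd2, at 0.09 to 0.44, 1 passed. Of 13 planar polarity genes 4 rose and 2 fell, with a median of 0.21. Prickle2, a cytoplasmic polarity protein, rose by 0.81, while Daam1, a formin that binds Dishevelled, and Intu, which acts in ciliogenesis, fell by 0.71 and 0.59 (limma adjusted p = 0.000325, 0.000358 and 0.000643). Other probe sets of Daam1 and Intu reached 0.25 and 0.02 without passing, while 1 of each fell.

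**Figure D4:**
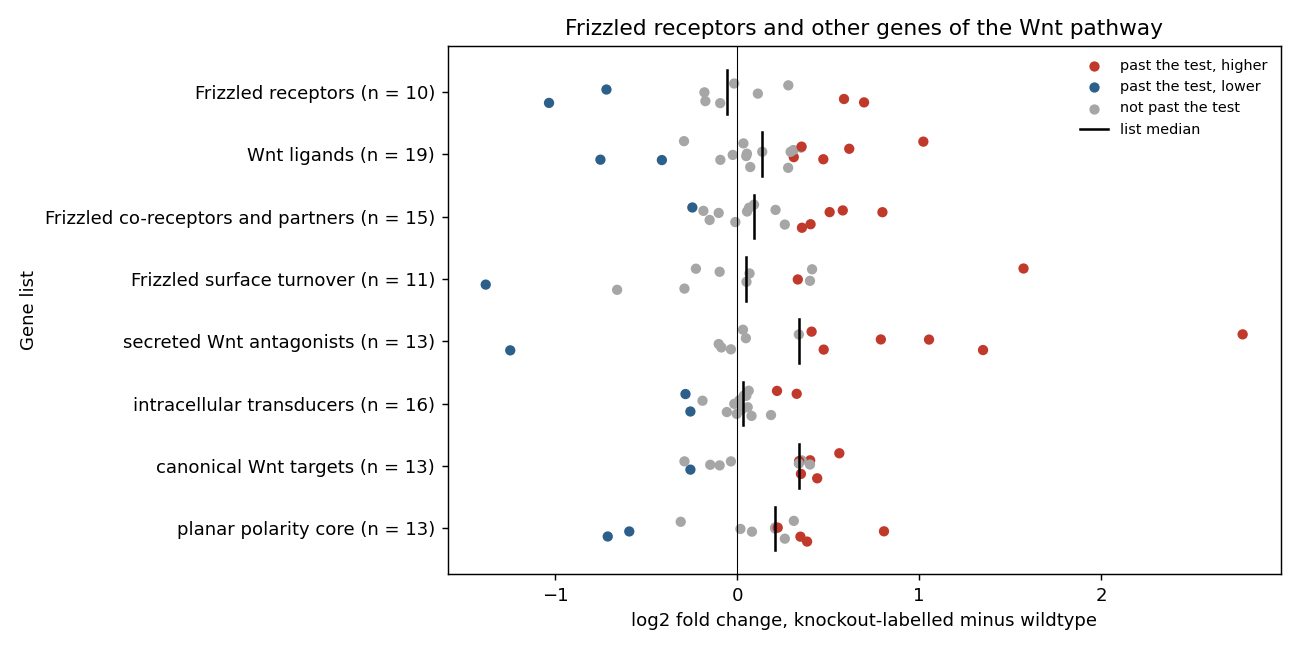
Log2 fold change, knockout-labelled minus wildtype, of the 10 Frizzled genes and of 7 lists of other Wnt pathway genes. Each point is a gene (red higher, blue lower and grey not past the test) and each black line the list's median. The Frizzled median is -0.06, and that of the secreted antagonists and of the canonical targets is 0.34.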

How the data were processed

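Total RNA of 8 samples was labelled with biotin and measured on 1-colour arrays. The authors deposited log2 values, 1 per probe set and array, which they had made with RMA, as the submitters' processing notes say. The software used for RMA and any filter on arrays are not stated there. RMA equalises the distributions of arrays and compresses differences at both ends of the scale. Scanner files and detection calls are not used here, so the number of arrays limits the precision.

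Of 45101 probe sets 64 were controls, and 34945 had 1 gene in the platform annotation. Each of 18193 genes was represented by the probe set with the highest mean over the 8 arrays. Groups were compared by limma's moderated test (version 3.58.1 under R 4.3.3, two-sided, no term but genotype, no filter, adjusted p under 0.05), once over genes and once over 45037 probe sets. On simulated data for this comparison with 18193 genes, 73.0% of changes of 0.5 log2 units and 100% of changes of 1 were recovered, and 7 unchanged genes passed. Only a small share of genes was changed there, with independent normal noise, whereas 19.6% of genes passed in the data. The recovered shares therefore need not hold for the data.

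All members, Otx2, up to 3 called genes of each list with the smallest p and the nearest profiles were named by rule. The members and lists were chosen with earlier results of these data known. Dvl1, Fzd10os, Kl, Ttr, and the intervals and alternatives singled out were chosen after values were seen.

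Deviations of same-numbered arrays correlated at 0.131, 0.232, 0.160 and 0.223 across genes, each above 0.1, so the numbers were taken as pairing the arrays in an alternative with a block. Differently numbered arrays of the 2 groups correlated at -0.296 to 0.294, so some were closer than any same-numbered pair. The pairing rests on these values, not on a label. Also tried were a variance prior with trend and robust fitting, array weights, the mean of probe sets, no shared probe sets, genes above the median, arrays centred on their medians, Welch's test for all genes, a threshold of 0.01 and leaving out each array.

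Promoter sequences came from RefSeq (GRCm38.p6), matched by symbol for 6 of the 10 genes. Their orientation was checked on 1647 overlapping windows of opposite strands, all reverse complements.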

Additional observations from a re-analysis of the deposited data

Results flagged for a closer look

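Of 68 groups of 4 arrays, taken over the 26 Frizzled probe sets and the 8 pairs of relatives, 3 had an array far from the others, and chance alone gives about 1 in 20. The Fzd8 level in wildtype replicate 4 was 7.72 log2 units, with the other wildtype arrays at 7.32 to 7.34. Fzd1 minus Fzd2 was 1.34 in wildtype replicate 1, with the others at 1.66 to 1.70. Fzd1 minus Fzd7 was 1.06 in wildtype replicate 4, with the others at 0.85 to 0.86.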

How the results depend on the processing

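The calls of Fzd2, Fzd4, Fzd5 and Fzd10 held with their direction in every fit that tested them, with log2 fold changes of 0.54 to 0.63, -0.77 to -0.57, -1.12 to -0.59 and 0.35 to 0.73. The Fzd2 probe set at 0.62 lost its call with Welch's test over all probe sets (adjusted p = 0.0951). Among genes above the median level, where Fzd5 and Fzd9 were not tested, 1 Frizzled gene was lower in place of 2. The replicate number as a block changed no Frizzled call of the limma fits, and ended those of Bcl9, Cdh5, Dvl1, Lef1 and Tnfrsf19 among the genes named. Under it the surface turnover and erythroid lists each had 2 genes lower in place of 1, and the canonical targets 0 in place of 1. In the pairs of relatives, exchange within same-numbered arrays, as a replicate block, gave an adjusted p of 0.167 for the 6 called changes (Fzd1 minus Fzd2 -0.68, Fzd2 minus Fzd7 0.77, Fzd5 minus Fzd8 -0.86, Fzd4 minus Fzd9 -1.0, Fzd4 minus Fzd10 -1.42 and Fzd9 minus Fzd10 -0.42), since 16 assignments allow no smaller p than 0.125. Fzd9 minus Fzd10 was -0.073 with the mean of probe sets, which takes in the dim probe set of Fzd10, and -0.47 to -0.38 without 1 array. Fzd1 minus Fzd7 was 0.069 to 0.14 without 1 array.

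The number of pathway genes that rose was 29, and 18 to 32 without 1 array, 13 at a threshold of 0.01 and 11 with Welch's test. The median of the surface turnover list was -0.017 with the mean of probe sets and -0.083 to 0.097 without 1 array. The median of the transducers was -0.0068 with the mean of probe sets, and that of the neuron markers -0.0044 to 0.62 without 1 array. The causes of these shifts were not tested. Dim probe sets, where RMA compresses differences, limit what can be read.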
